A study of Sus scrofa with 9 samples.

Results

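The genes described here make cholesterol and fatty acids in the liver. They were taken from a list of 34 gene symbols, of which 33 were found among the 25918 genes of the expression table and IDI1 was not matched by symbol. The symbols cover the sterol-sensing SREBP machinery, the mevalonate and isoprenoid enzymes, the enzymes after squalene, the sterol carrier STARD4, fatty acid synthesis, and glycerolipid synthesis and remodelling. Of the 33 genes, 31 reached a mean of at least 0.5 FPKM over the libraries and were tested, while ACACB (mean 0.128 FPKM) and PNPLA3 (mean 0.344 FPKM) did not. FPKM counts sequenced fragments per kilobase of transcript, scaled to the mapped fragments of a library, so it is a level per length and can be set side by side between genes.

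The libraries were poly(A) RNA of whole liver from 9 Wujin pigs, a Chinese native breed. All pigs ate the same basic diet from 35 days of age, with iron glycinate giving 0 mg/kg of added iron in the low-iron group, 100 mg/kg in the control group and 200 mg/kg in the high-iron group, for 30 days after 5 days of prefeeding. Each library came from a separate, individually housed pig and is called here by its group and the animal number in its label (low-iron 2, 3 and 7, control 4, 5 and 6, high-iron 2, 7 and 8), and an equal number in different groups is not the same animal. Blood was drawn on an empty stomach before slaughter, but the hours since the last meal were not given in the sources used here. The study used equal numbers of male and female pigs, and the sex of each sequenced pig was not stated.

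Cells in the liver hold the SREBP transcription factors in the endoplasmic reticulum as long as sterols are plentiful, through the escort protein SCAP and the INSIG retention proteins. When sterols run low the factors are released and switch on the genes of cholesterol synthesis (mainly the product of SREBF2) and of fatty acid synthesis (mainly the product of SREBF1, which insulin and feeding also raise). Because 1 regulator acts on many enzymes, their transcripts often move together in liver.

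SREBP factors bind sterol regulatory elements, usually beside a site for the factor NF-Y, so the promoters of the members were read from the Sscrofa11.1 genome. The window ran from 250 bases before to 50 bases after the annotated gene start, for 20650 genes of the table and all 33 members. The core TCACNCCAC, searched on both strands, stood in 3 of 33 member promoters (9.09%), those of HMGCS1, SQLE and SREBF2, and in 0.877% of all promoters. CCAAT, the NF-Y motif, stood on either strand in 20 of 33 member promoters (60.6%) against 35.7% of all, and in 14 of 16 sterol enzyme promoters, with none in those of CYP51 and MSMO1. The E-box CACGTG, which can share letters with the end of TCACNCCAC but stood beside it in no member, stood in the promoters of INSIG1, PMVK, SC5D and ACLY (12.1% of members, 7.64% of all), and the GC box GGGCGG in 27 of 33 (81.8%, against 48.9%). Member windows had a median GC content of 65.3%, against 58.0% over all, and GC content bears on how often GC-rich motifs occur by composition alone. These matches describe letters in a window and are not sites of measured binding. The 200 bases before the gene start are shown 5′ to 3′ for HMGCS1 and SREBF2, which hold a TCACNCCAC core, and for MVD, the mevalonate enzyme with 3 CCAAT motifs there, since HMGCS1 and MVD are also among the genes on which the results below turn. Capitals mark TCACNCCAC and CCAAT or its reverse complement. The stretches lie at chr16:27957262-27957461 on the minus strand for HMGCS1, chr5:6784725-6784924 on the minus strand for SREBF2 and chr6:1007900-1008099 on the plus strand for MVD, each directly upstream of the annotated gene.
HMGCS1: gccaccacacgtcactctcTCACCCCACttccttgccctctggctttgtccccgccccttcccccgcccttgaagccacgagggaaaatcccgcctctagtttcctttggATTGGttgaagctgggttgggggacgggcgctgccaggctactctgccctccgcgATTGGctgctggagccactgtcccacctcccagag
SREBF2: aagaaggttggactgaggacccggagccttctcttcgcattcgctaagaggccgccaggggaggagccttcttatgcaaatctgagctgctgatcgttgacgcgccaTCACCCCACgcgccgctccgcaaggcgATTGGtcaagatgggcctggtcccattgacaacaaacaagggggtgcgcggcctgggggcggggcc
MVD: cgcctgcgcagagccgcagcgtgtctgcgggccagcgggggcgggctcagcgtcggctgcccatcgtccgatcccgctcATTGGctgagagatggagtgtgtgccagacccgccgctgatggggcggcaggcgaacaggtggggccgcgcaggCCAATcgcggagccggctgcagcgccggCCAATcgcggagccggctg

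**Figure D1:**
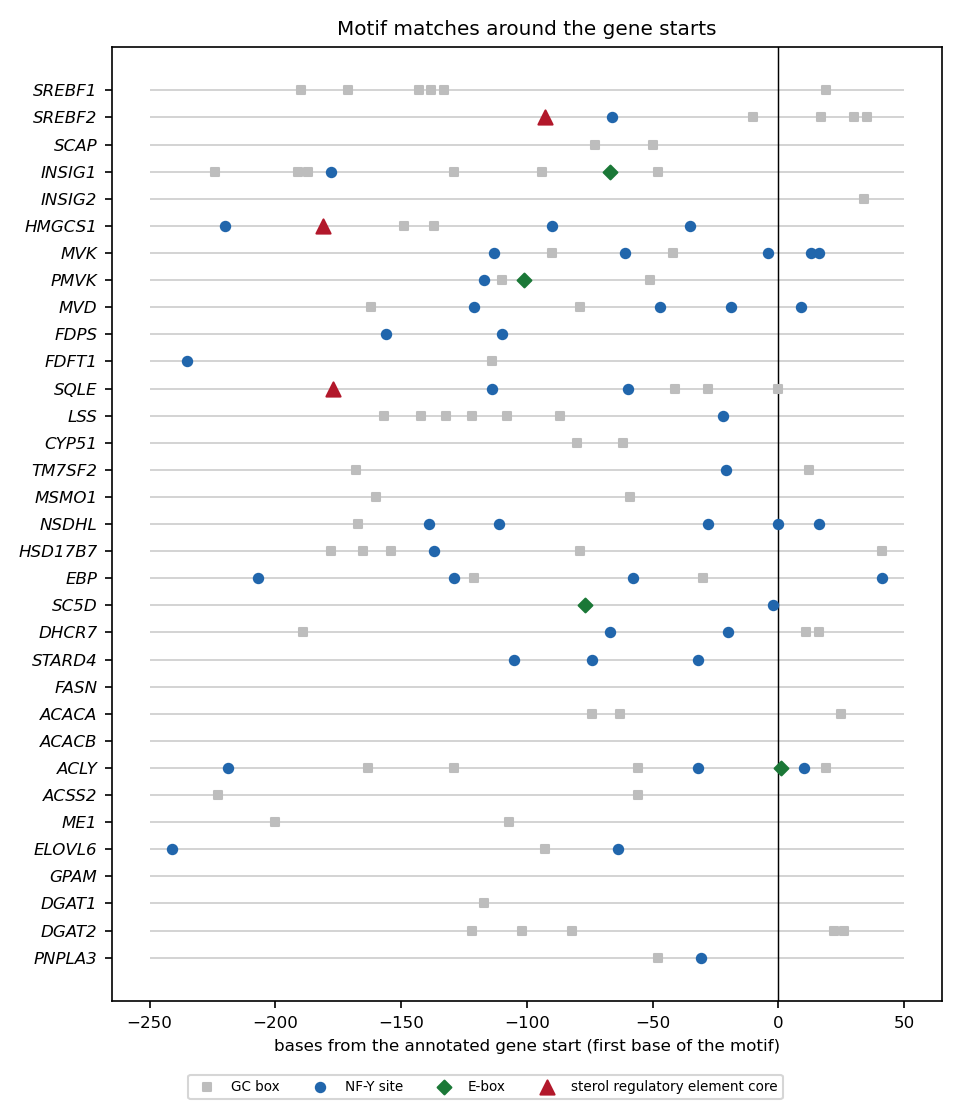
Positions of the motif matches in member promoters, in bases from the annotated gene start (250 before to 50 after), with 1 line for each gene. TCACNCCAC matches are drawn for HMGCS1, SQLE and SREBF2 alone, whereas CCAAT matches are spread over 20 of the 33 promoters.

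The summed FPKM lay between 416922 and 456420 per library. The study lists the mapped reads of each library, which were most in high-iron 2 and fewest in control 6. The table holds no counts for genes, so the number of reads behind a single value is unknown. The precision rests on the 3 pigs of a group. The labelled tissue was checked with 8 hepatocyte markers such as ALB and TTR, whose summed level was 75107 to 99192 FPKM in every library. TF matched 2 genes, so the sum holds 9 genes, and ALB alone gave 46231 to 74134 FPKM. TTR lay between 1449 and 2469 FPKM, and the lowest of the 9, a TF gene, between 221 and 285 FPKM. Fat tissue would also carry lipogenic transcripts, but its defining markers ADIPOQ and LEP were listed at 0 in every library, and the summed level of the 6 adipocyte markers was 1.88 to 5.62 FPKM in the low-iron, 0.916 to 3.77 in the control and 1.72 to 4.79 in the high-iron group. Other cell types differed more between groups. The 6 stellate cell and fibroblast markers summed to 138 to 269 FPKM in the high-iron group against 95.4 to 127 in controls, and the 6 endothelial markers to 135 to 146 against 98.3 to 102, with no marker of either list at 0 throughout. EIF1AY, a gene on chromosome Y, was at 0 FPKM in low-iron 3, control 5, high-iron 2 and high-iron 8 and at 15.0 to 26.5 FPKM in the other libraries. By this gene high-iron 7, at 26.5 FPKM, read as the only male of the high-iron group. Low-iron 3 and control 5 were the only libraries of their groups at 0. In bulk liver, fewer cells of a type and less RNA per cell cannot be told apart, and the part of these cell type markers in the member levels was not tested.

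The genes of the SREBP machinery, which include the 2 factors, are called the sensors here. In ratio, their largest difference between diets was that of INSIG2 between high-iron and low-iron pigs. SREBF1 had 9.14, 9.18 and 6.43 FPKM in low-iron 2, 3 and 7, 11.9, 7.35 and 8.82 in control 4, 5 and 6, and 13.9, 7.73 and 6.04 in high-iron 2, 7 and 8. SREBF2 had 22.9, 24.3 and 17.6 FPKM in the low-iron group, 13.7, 21.3 and 11.6 in controls and 15.1, 24.2 and 16.1 in the high-iron group. For both factors the 3 groups overlapped. SCAP, which escorts the factors to the Golgi, lay between 5.89 and 11.4 FPKM. INSIG1, itself a target of the pathway, ranged from 26.5 FPKM in control 4 to 90.8 FPKM in high-iron 2. INSIG2, whose liver transcript is known to vary with feeding, had 16.4, 26.4 and 16.9 FPKM in the low-iron, 33.1, 21.0 and 17.7 in the control and 27.4, 32.5 and 27.9 in the high-iron group. All high-iron pigs thus stood above all low-iron pigs for INSIG2, with the controls across both.

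The mevalonate and isoprenoid enzymes, which build squalene from acetyl units, differed among themselves in how far the pigs spread. HMGCS1, the HMG-CoA synthase of the cytosol (chromosome 16, 27936225 to 27957261), had 15.99, 28.4 and 10.4 FPKM in the low-iron group, 7.38, 14.4 and 6.93 in controls and 8.27, 110.1 and 12.8 in the high-iron group. MVD, which decarboxylates mevalonate diphosphate, had 5.88, 4.55 and 6.59, then 4.43, 4.69 and 5.02, then 3.63, 23.3 and 6.05 FPKM in the same order. FDFT1, squalene synthase, had 43.6, 16.3 and 27.5, then 37.4, 26.1 and 23.4, then 23.7, 115 and 39.0 FPKM. In all 3 genes high-iron 7 stood far above every other pig, and high-iron 2 and 8 lay within or near the range of the controls. FDPS, farnesyl diphosphate synthase, was instead lowest in control 4, followed by control 6. It had 51.9, 59.2 and 49.5 FPKM in the low-iron group and 12.8, 60.6 and 27.4 in controls. In the high-iron group FDPS had 46.6, 68.6 and 36.3 FPKM. The kinases were steadier, with MVK between 23.2 and 55.3 FPKM and PMVK between 18.2 and 31.6 FPKM.

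The enzymes from squalene to cholesterol followed. SQLE, squalene epoxidase and a rate-limiting enzyme of the pathway, had 13.7, 8.91 and 9.31 FPKM in the low-iron group, 3.15, 9.54 and 5.25 in controls and 6.79, 52.4 and 12.3 in the high-iron group. MSMO1, the sterol methyl oxidase, had 152, 133 and 128 FPKM in the low-iron group, 42.9, 142 and 61.0 in controls and 107, 278 and 133 in the high-iron group. CYP51, lanosterol demethylase, had 60.7, 58.1 and 46.6, then 16.1, 78.8 and 17.4, then 38.6, 93.0 and 41.3 FPKM. For these genes control 5 lay with or above the low-iron pigs, and control 4 and 6 lay below them. SC5D, the sterol desaturase, showed the same split among the controls, with 42.5, 182 and 52.4 FPKM against 84.8 to 147 FPKM in the low-iron and 68.5 to 112 FPKM in the high-iron group. TM7SF2, a sterol reductase, was among the most abundant members at 68.8 to 153 FPKM. The other members of this step were LSS at 32.6 to 64.6, NSDHL at 13.6 to 33.6, HSD17B7 at 15.0 to 51.5, EBP at 31.4 to 95.8 and DHCR7 at 36.4 to 62.8 FPKM. STARD4, which carries cholesterol between membranes, lay between 13.4 and 33.9 FPKM and was highest in control 5.

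In fatty acid synthesis, FASN, the fatty acid synthase, had 53.6, 16.3 and 10.5 FPKM in the low-iron group, 11.8, 19.0 and 8.86 in controls and 18.9, 24.9 and 5.90 in the high-iron group. ACACA, the carboxylase that makes its malonyl-CoA substrate, had 22.5, 15.3 and 11.0, then 13.2, 11.8 and 5.85, then 14.05, 6.87 and 7.04 FPKM. Low-iron 2 was highest for both, and the groups overlapped. ELOVL6, which lengthens the C16 product of FASN (chromosome 8, 112038670 to 112190079), had 50.7, 64.4 and 89.7 FPKM in the low-iron group, 22.2, 34.8 and 42.5 in controls and 40.9, 56.3 and 61.9 in the high-iron group. Each low-iron pig was above each control, while the lowest high-iron pig lay just under the highest control. ACLY, which yields cytosolic acetyl-CoA, lay between 6.83 and 15.4 FPKM, ACSS2, which activates acetate, between 12.6 and 33.3, and ME1, a source of NADPH, between 0.961 and 3.73. ACACB, the mitochondrial carboxylase, stood at 0.0446 to 0.237 FPKM.

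Of the glycerolipid genes, GPAM, the first acyltransferase of triglyceride synthesis in mitochondria, had 22.8, 13.9 and 8.11 FPKM in the low-iron group, 40.1, 10.7 and 19.1 in controls and 14.8, 25.6 and 18.7 in the high-iron group. Control 4 held its highest level, unlike its sterol genes. DGAT1 and DGAT2, which add the last acyl chain, lay between 12.5 and 21.6 and between 59.5 and 140 FPKM. PNPLA3, a lipid droplet hydrolase, was at 0.0394 to 0.636 FPKM.

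**Figure D2:**
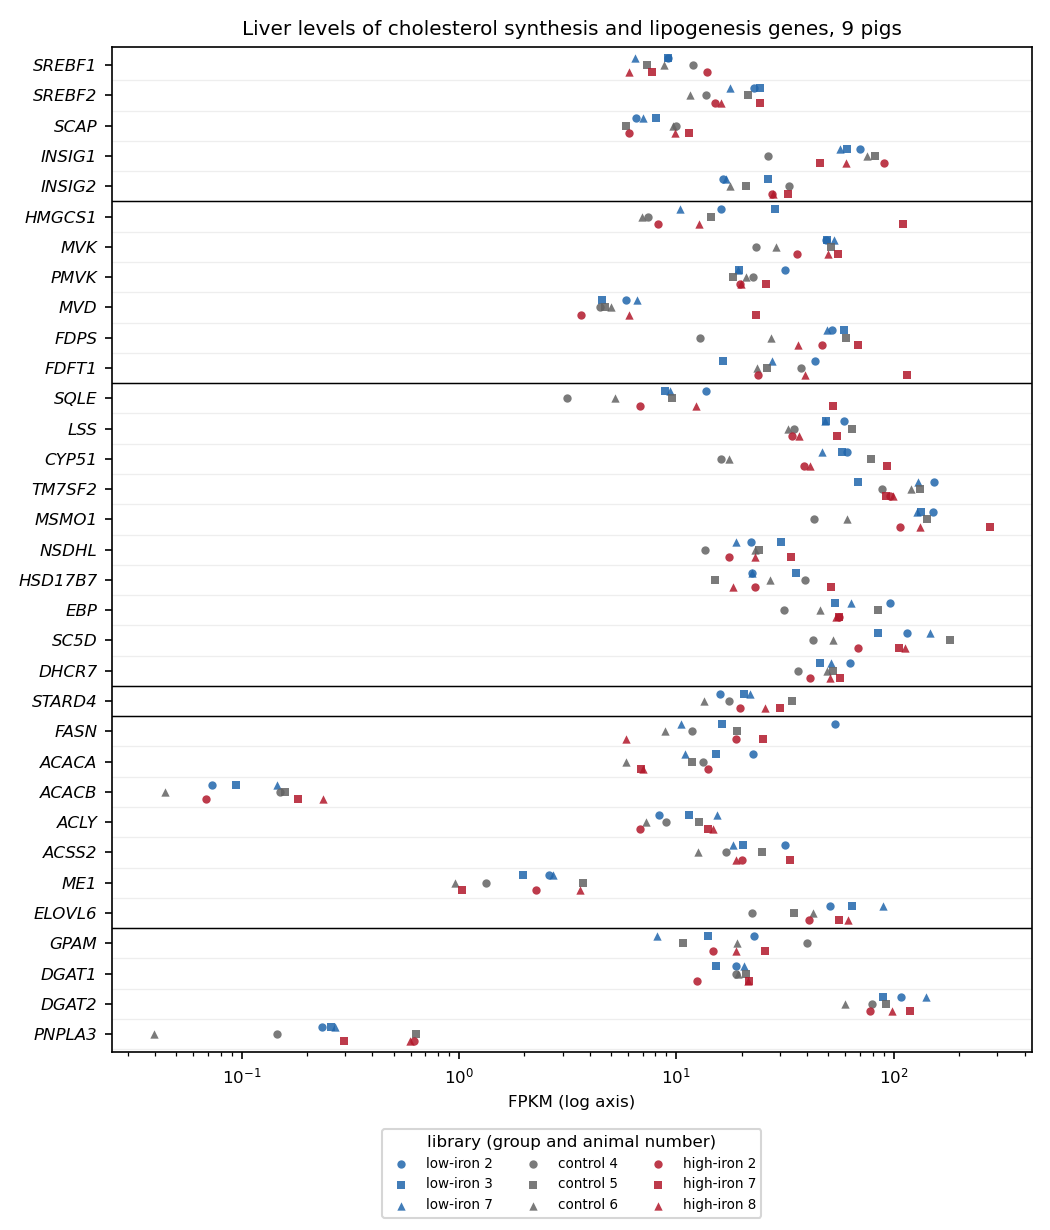
Level of each member in each of the 9 libraries, in FPKM on a log axis, with points coloured by diet group. HMGCS1, MVD, FDFT1 and SQLE each have 1 high-iron point (pig 7) far to the right of all others, and ELOVL6 is the gene whose low-iron points all lie right of the controls.

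The comparison of low-iron with control pigs asked whether leaving out the added iron moved these genes. ELOVL6 was the only member called, by the thresholds of the study (unadjusted limma p under 0.05 and at least a 2-fold difference) on log2(FPKM + 0.1). The low-iron pigs averaged 68.3 ± 19.8 FPKM and the controls 33.2 ± 10.2 FPKM (SD, n = 3 each). The log2 difference was 1.05 (SE 0.29, limma p = 0.00408, adjusted p = 0.9998), and the exact two-sided permutation test of 3 against 3 gave p = 0.1, the smallest it allows. So 1 of 31 members was called, against 0.882% of all tested genes, and 1 of 31 had groups that did not overlap, against 8.34% of all tested genes. No member had an adjusted p under 0.05. An unadjusted limma p under 0.05 was found for 2 of 31 members, against 463 of the 12584 tested genes. The ELOVL6 call was lost without low-iron 7 (log2 difference 0.83), without control 4 (0.79), with median-of-ratios scaling (0.97) and with quantile normalization (0.94).

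Most members were higher in the low-iron than in the control group, without passing the test. They numbered 23 of 31 (74.2%, against 62.7% of all tested genes), with a median log2 difference of 0.30 against 0.08 over all genes, and single members ran from -0.55 to 1.05. All 6 fatty acid synthesis genes were on the higher side (median 0.58), as were 9 of 10 enzymes after squalene (0.39) and 5 of 6 mevalonate and isoprenoid enzymes (0.44). The sensors did not share this, with 2 of 5 higher and a median of -0.17. GPAM had the most negative difference, -0.55 (SE 0.47), from 23.3 ± 15.1 FPKM in controls to 14.9 ± 7.397 FPKM in low-iron pigs (SD, n = 3 each), which is about its standard error.

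Between high-iron and control pigs, the question was whether iron above the control diet moved the pathway. SQLE and MSMO1 were called higher, 2 of 31 members against 1.57% of all tested genes. SQLE averaged 23.9 ± 24.9 FPKM (SD, n = 3) against 5.98 ± 3.26 FPKM (SD, n = 3), a log2 difference of 1.58 (SE 0.63, limma p = 0.0305, adjusted p = 0.892, exact permutation p = 0.2). MSMO1, on chromosome 8 from 43726834 to 43745784, averaged 172.7 ± 92.1 FPKM (SD, n = 3) against 82.0 ± 52.8 FPKM (SD, n = 3), a log2 difference of 1.14 (SE 0.43, limma p = 0.0248, adjusted p = 0.892, exact permutation p = 0.3). For both genes the high-iron and control pigs overlapped, as they did for all 31 members, against 10.9% of all tested genes that did not overlap. Both calls rested on single pigs: without high-iron 7 the log2 differences were 0.75 for SQLE and 0.73 for MSMO1, without control 4 they were 1.20 and 0.76, without control 6 they were 1.56 and 1.02, and none of these passed. Without the filter on low values both were also lost.

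In that comparison 25 of 31 members were higher (80.6%, against 65.0% of all tested genes), with a median log2 difference of 0.26 against 0.10. The mevalonate and isoprenoid enzymes stood highest, with all 6 on the higher side and a median of 0.75, while the 10 enzymes after squalene had a median of 0.22, fatty acid synthesis 0.26, the sensors 0.20 and the glycerolipid genes -0.07. Without high-iron 7, 21 members were higher and 10 lower, with a median of 0.10. TM7SF2 had the most negative difference, -0.22 (SE 0.28, limma p = 0.446, adjusted p = 0.994, exact permutation p = 0.4), from 114 ± 22.9 FPKM in controls to 96.2 ± 3.69 FPKM in high-iron pigs (SD, n = 3 each). With median-of-ratios scaling, which moved the median of all genes from 0.10 to -0.01, 22 members were higher and 9 lower, and with quantile normalization 24 and 7.

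High-iron and low-iron pigs, the ends of the iron range, differed least. No member was called, against 1.54% of all tested genes. Of the 12584 tested genes 900 had an unadjusted limma p under 0.05, as did 1 of 31 members, INSIG2. Its mean was 29.3 ± 2.82 FPKM (SD, n = 3) against 19.9 ± 5.65 FPKM (SD, n = 3), a log2 difference of 0.59 (SE 0.26, limma p = 0.0468, adjusted p = 0.697, exact permutation p = 0.1). It was also the only member whose groups did not overlap, against 13.2% of all tested genes. The members split into 14 higher and 17 lower (45.2% higher, against 53.6% of all), with a median log2 difference of -0.02. FDFT1 had the largest positive difference at 0.81 (SE 0.52) and ACACA the most negative at -0.82 (SE 0.38), with limma p = 0.148 and 0.0579 (exact permutation p = 0.5 and 0.2). ACACA averaged 9.32 ± 4.10 FPKM (SD, n = 3) against 16.3 ± 5.84 FPKM (SD, n = 3). All 3 comparisons draw on the same 9 libraries, and each pair of comparisons shares a group.

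**Figure D3:**
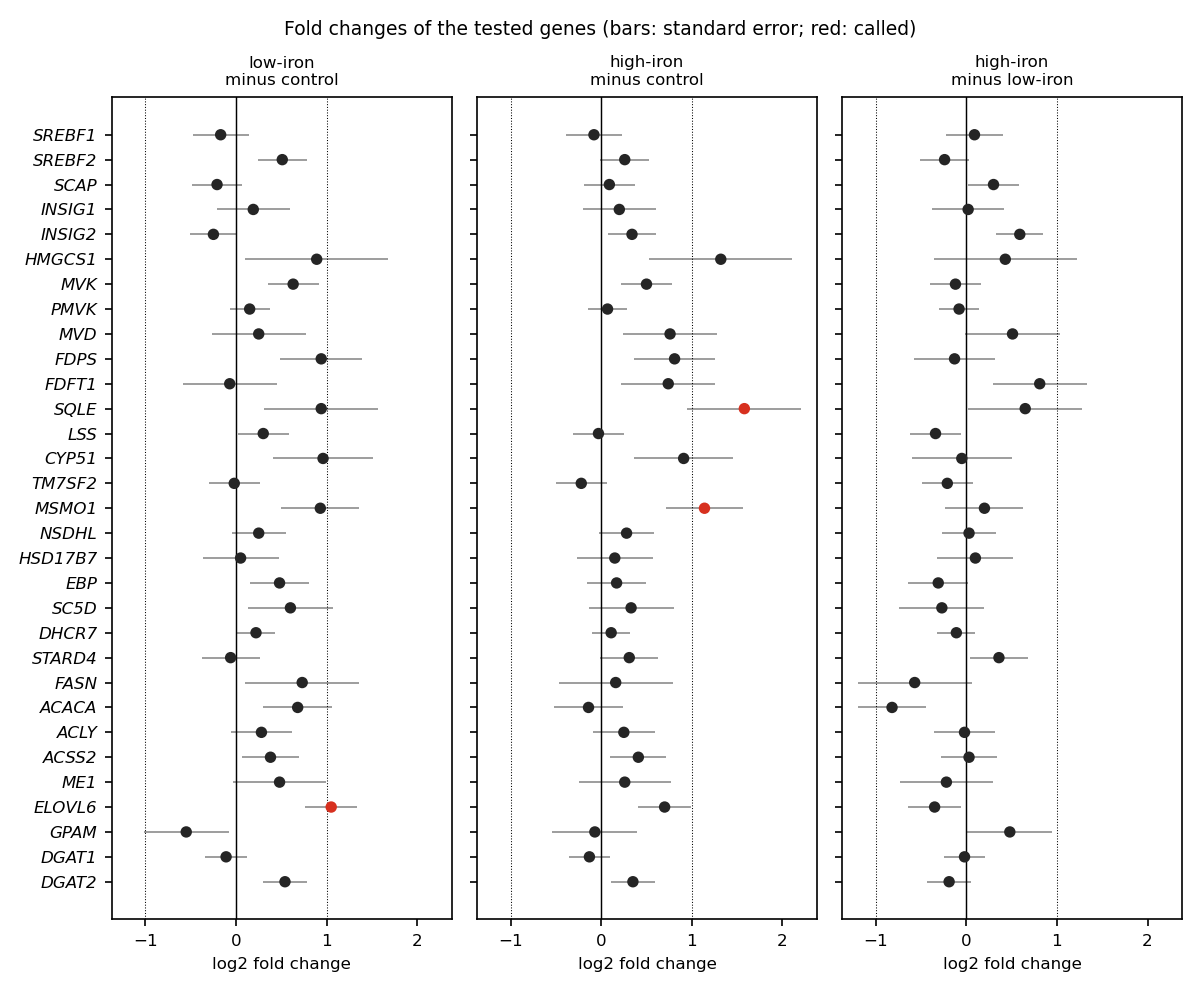
Log2 difference of each tested member in each of the 3 comparisons, with the standard error from limma as the bar and called members in red. ELOVL6 (low-iron against control), SQLE and MSMO1 (high-iron against control) are the only red points, and many of the other bars cross 0.

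Over the 3 groups together, an exact permutation of the F statistic found 1 of 31 members (3.23%) with an unadjusted p under 0.05, ELOVL6 at p = 0.0357, against 5.37% of all 12584 genes. By this measure the share among the members was not above the share over all genes.

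The larger differences lay between individual pigs. High-iron 7 held the highest level of the 9 libraries for 13 of 31 members (41.9%), whereas it was highest for 16.1% of all tested genes, and it was lowest for none of the members. Among the 16 sterol enzymes it was highest for 10 (62.5%). HMGCS1 was 3.88 times its level in the next-highest library, SQLE 3.82 times, MVD 3.54 times and FDFT1 2.64 times. Over the whole table, 29 genes (0.23% of those tested) stood at least 2-fold above every other library in high-iron 7 after adding 0.1 FPKM, and these 4 were among them. This library was picked from the values themselves, so the counts describe it and test nothing.

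The opposite end was held by controls. Control 4 was lowest for 11 of 31 members (35.5%), against 6.03% of all tested genes, and for 9 of 16 sterol enzymes, with FDPS at less than 0.5 times the next-lowest library. Control 6 was lowest for 8 members, against 16.2% of all tested genes, among them 3 of 6 fatty acid synthesis genes. Control 5 lay apart from both, with the highest level for 4 of 31 members (12.9%, against 6.49% of all tested genes) and the lowest for 3 (9.68%, against 22.6%). As deviations from the mean of the 9 libraries on the log2 scale, the median sterol enzyme stood at -0.78, 0.20 and -0.47 in control 4, 5 and 6, at 0.37, 0.02 and 0.11 in low-iron 2, 3 and 7, and at -0.25, 0.66 and -0.02 in high-iron 2, 7 and 8. The controls thus lay on both sides of the mean, with control 4 the lowest library of all, while the median over all genes stayed between -0.14 and 0.12 in every library. For fatty acid synthesis the medians were -0.34, 0.25 and -0.77 in controls, 0.47, 0.09 and 0.20 in the low-iron group and 0.04, 0.31 and 0.10 in the high-iron group. Low-iron 2 was highest for 6 members (19.4%, against 5.43% of all tested genes), with FASN at 2.15 times the next library.

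**Figure D4:**
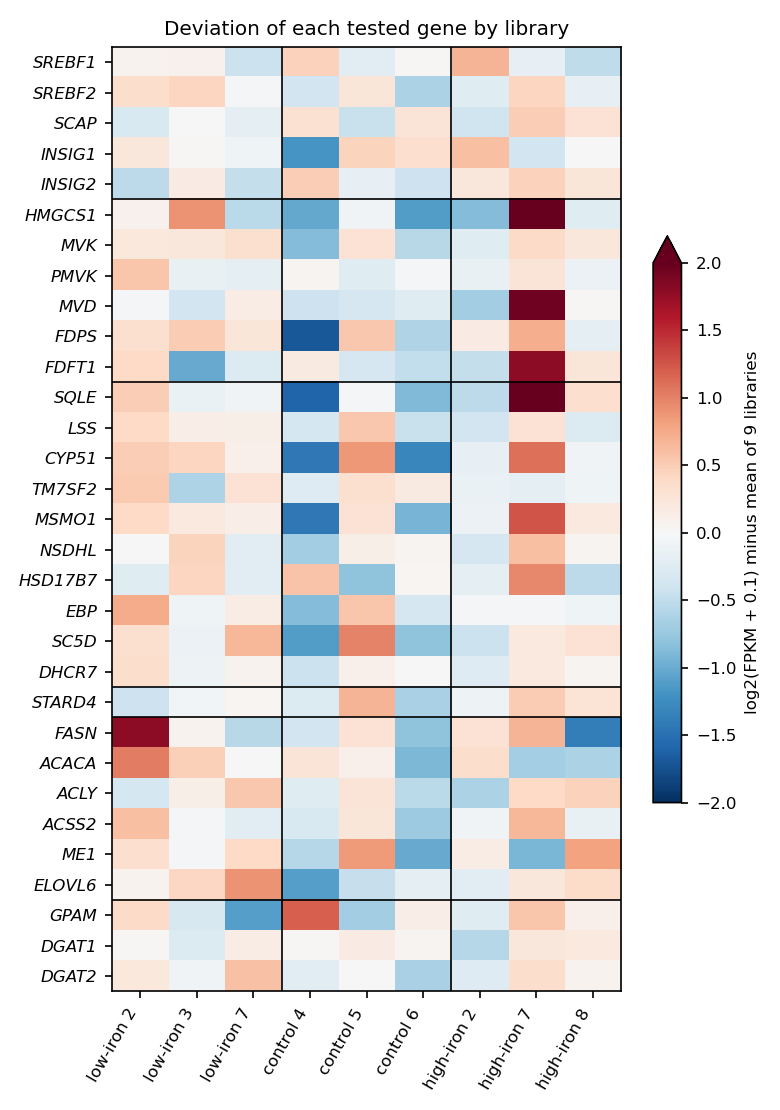
Deviation of each tested member from its mean over the 9 libraries, log2(FPKM + 0.1), with colours capped at 2 in both directions and libraries ordered by diet group. The high-iron 7 column is high for most sterol enzymes (median 0.66), but not for TM7SF2 and EBP. The control 4 column is low for most of them (median -0.78), but not for HSD17B7, FDFT1 and PMVK. Control 5 departs from the other controls.

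Sterol genes moved together from pig to pig. Across the 9 libraries the median of the 120 pairwise Pearson r values among the 16 sterol enzymes was 0.53, and 52.5% of the pairs lay over 0.5, whereas over all pairs of tested genes the median was 0.08 and 13.4% lay over 0.5. Among the 6 fatty acid synthesis genes the median was 0.26, and between them and the sterol enzymes it was 0.36. Without high-iron 7 the median for the sterol enzymes was 0.49. These values are descriptions, since all genes share the same 9 libraries and their scaling.

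Genes that respond to feeding and fasting were set beside these levels. PCK1, the enzyme that commits carbon to glucose synthesis in fasting, was lowest in high-iron 7 at 227 FPKM, against 542 to 897 FPKM in the other 8 libraries. CPT1A, which admits fatty acids to mitochondria, was also lowest there, at 20.7 against 27.2 to 77.9 FPKM. So the pig with the highest sterol enzyme transcripts also had the lowest PCK1 and CPT1A, and the part of its feeding state in the sterol gene levels was not tested.

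Other genes of this set did not share that order. IGFBP1, a fasting-induced binding protein of insulin-like growth factors, had 150.3 FPKM in high-iron 7, within its range of 19.8 to 199.6 FPKM, and was highest in low-iron 3. PKLR, the pyruvate kinase of liver, was highest in low-iron 2. Between diets, 1 of the 12 genes of the set was called in low-iron against control and 1 in high-iron against low-iron. Over all tested genes the shares called were 0.882% and 1.54%. Both times the gene was PDK4, a kinase that blocks pyruvate oxidation in fasting. It had 20.2, 23.9 and 38.8 FPKM in the low-iron group, 59.3, 85.5 and 39.5 in controls and 26.6, 74.8 and 90.5 in the high-iron group. The low-iron pigs all lay under the controls, with a log2 difference of -1.13 (SE 0.45, limma p = 0.0292, adjusted p = 0.9998, exact permutation p = 0.1). It was also called higher in high-iron than in low-iron pigs, at 1.09 (limma p = 0.0353, adjusted p = 0.678, exact permutation p = 0.2), although high-iron 2 lay within the low-iron range. Neither call held when low-iron 2 or low-iron 3 was left out, at -0.94 and -1.06 in the first and 0.89 and 1.01 in the second comparison. The first was also lost without control 4 (-1.13) or control 5 (-0.86), and the second without high-iron 7 (0.88) or high-iron 8 (0.75) or with EIF1AY as a covariate (1.09). Without the filter on low values both were lost.

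**Figure D5:**
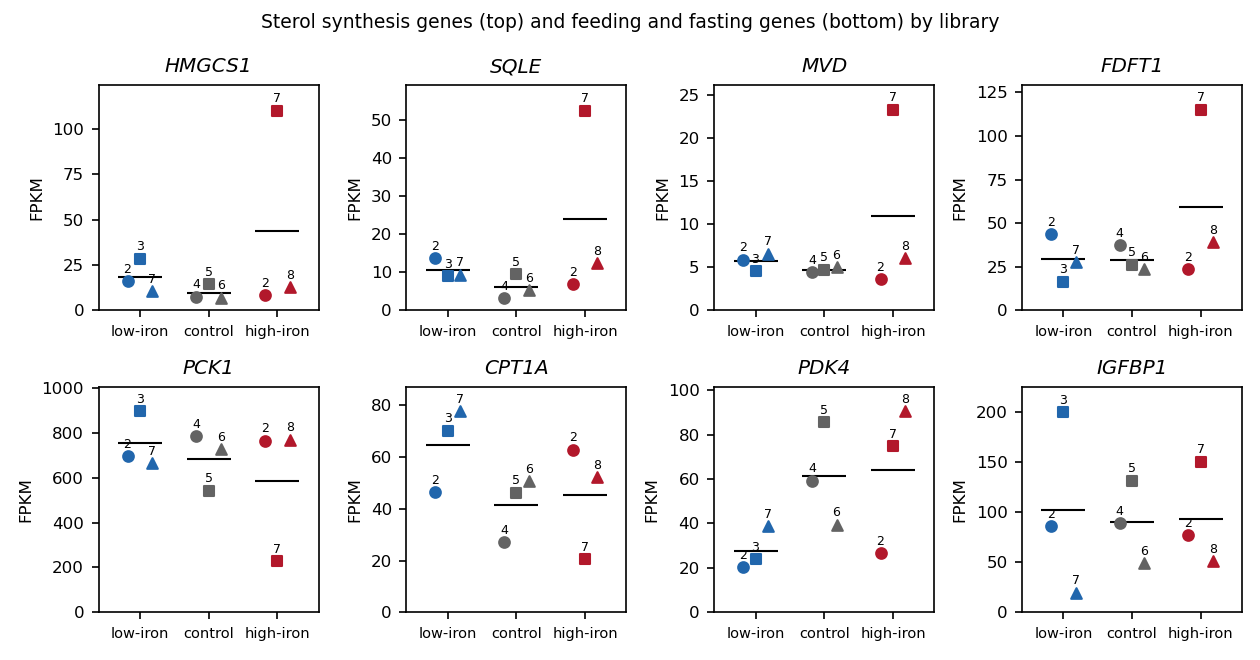
FPKM of 4 sterol enzymes (HMGCS1, SQLE, MVD, FDFT1) and 4 feeding-response genes (PCK1, CPT1A, PDK4, IGFBP1) in each library, by diet group, with points labelled by animal number and a line at the group mean. High-iron 7 is the highest point in the sterol panels and the lowest for PCK1 (227 FPKM) and CPT1A (20.7 FPKM), but neither end for PDK4 and IGFBP1.

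The neighbouring genes of the pathway were read from 4 further lists with 40 tested genes, covering SREBP processing, sterol efflux and esterification, NADPH and lipogenic regulators, and lipid droplets. In low-iron against control pigs 22 of the 40 were higher (55.0%, against 62.7% of all tested genes) and 3 were called, all higher, against 0.882% of all tested genes called. FADS1, the delta-5 desaturase of long-chain polyunsaturated fatty acids, had 87.9, 52.8 and 49.8 FPKM in the low-iron group, 10.5, 41.0 and 13.2 in controls and 39.1, 30.9 and 49.1 in the high-iron group. FADS2, the delta-6 desaturase that acts before it, had 156, 107 and 109.9 FPKM, then 26.3, 90.3 and 55.5, then 89.9, 84.9 and 143 FPKM. Every low-iron pig was above every control for both genes. Control 4 was the lowest library for both, as for 9 of 16 sterol enzymes.

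The log2 difference of FADS1 was 1.78 (SE 0.45, limma p = 0.00233, adjusted p = 0.9998, exact permutation p = 0.1) and that of FADS2 was 1.26 (SE 0.39, limma p = 0.0089, adjusted p = 0.9998, exact permutation p = 0.1). Without control 4 the FADS2 call was lost (0.79), while the FADS1 value ranged from 1.39 to 2.37 as each library was left out. ACAT2, which condenses acetyl-CoA at the entry to the mevalonate pathway, had 15.3, 22.6 and 14.4 FPKM in the low-iron group and 5.98, 13.7 and 7.34 FPKM in controls, a log2 difference of 1.01 (SE 0.39, limma p = 0.0273, adjusted p = 0.9998, exact permutation p = 0.1). In the high-iron group ACAT2 had 10.8, 29.5 and 14.1 FPKM, with high-iron 7 again the highest library. Its call was lost without low-iron 3 (0.81), control 4 (0.76) or control 6 (0.91), and under a pseudocount of 1, median-of-ratios scaling, quantile normalization, no filter or the replicate block (0.99).

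In high-iron against control pigs 23 of the 40 were higher (57.5%, against 65.0% of all tested genes) and 3 were called, all higher, against 1.57% of all tested genes called. FADS1 and FADS2 were called at 1.12 and 1.02 (limma p = 0.0295 and 0.0267, adjusted p = 0.892 and exact permutation p = 0.3 for both). Both were lost without control 4 (0.74 and 0.54), without high-iron 8 (0.96 and 0.78), with median-of-ratios scaling (1.01 and 0.90) without the filter and with the EIF1AY level as a covariate, and FADS1 also without control 6 (0.91) or high-iron 2 (1.12). ABCG1, a sterol efflux transporter switched on by oxysterols, had 1.99, 1.64 and 1.46 FPKM in the high-iron group and 0.956, 0.948 and 0.373 in controls. The 2 groups did not overlap, and the log2 difference was 1.15 (SE 0.37, limma p = 0.011, adjusted p = 0.885, exact permutation p = 0.1). It was 0.76 and not called without control 6, and the call was also lost with a pseudocount of 1 (0.63), quantile normalization (0.93) and array quality weights (0.99). Between high-iron and low-iron pigs none of the 40 was called by limma, against 1.54% of all tested genes. An unadjusted limma p under 0.05 was found for 1 of the 40, against 900 of the 12584 tested genes. Of the 6 SREBP processing genes none was called in any comparison and none had an unadjusted limma p under 0.05, with medians of -0.15, -0.10 and 0.00 in low-iron against control, high-iron against control and high-iron against low-iron.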

How the data were processed

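Liver RNA of 9 pigs was sequenced from poly(A)-selected libraries made with a kit that does not mark strand. The authors aligned clean reads to Sscrofa11.1 with HISAT2 and assembled transcripts with StringTie, per their processing notes and methods, and deposited FPKM values for each library, with no further scaling stated. Gene numbers were read as the order of gene lines in NCBI annotation release 106, where all 20660 numbered genes fall on protein-coding lines (15031 when shifted by 1). Another 5258 genes of the table are new and have no name.

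Genes with a mean of at least 0.5 FPKM (12584) were analysed as log2(FPKM + 0.1) with limma 3.58.1 in R 4.3.3, in a fit of the 3 groups with an intensity trend and 6 residual degrees of freedom. The call was the fold change of 2 and unadjusted p under 0.05 of the study, which tested read counts, and adjusted p-values are Benjamini-Hochberg over all tested genes. Differences are log2(low-iron/control) and so on, and understate low genes. Exact permutation tests were two-sided, over 3 against 3 pigs or over all assignments to the 3 groups. The p-values measure the spread between individual pigs. The procedure was tested on simulated data. Python 3.11.15 read the promoters from the genome of the same build, by gene start.

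The members and lists were chosen with earlier results of these data known. All members are given with their levels, and fold changes are printed for members that were called, whose groups did not overlap, or that had the largest difference in each direction. From the other lists, up to 5 called genes for each comparison were named by p. HMGCS1, MVD, FDPS, CYP51, SC5D, FASN, PCK1, CPT1A, IGFBP1, PKLR and single libraries were described after their values were seen. Some results are not reported here.

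Low-iron and high-iron pigs share the numbers 2 and 7 in their labels. Deviations from the group means correlated at 0.0183 and 0.0213 for these numbers, while the consensus correlation that limma used for the replicate block was 0.201. In the main fit the numbers were not taken to pair the pigs. Alternatives were pseudocounts of 1 and 0.01, no filter or a mean of at least 1 FPKM, quantile normalization, median-of-ratios scaling, TPM, a fit of the compared groups, array quality weights, a replicate block, EIF1AY as a covariate, and leaving out each library.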

Additional observations from a re-analysis of the deposited data

How the results depend on the processing

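Of 120 alternative values for the counts of called members and their medians, 96 stayed near the main value, 19 moved and 5 changed direction. Near meant within 1.5 times the count, or the same sign and a median shifted by less than 0.297. That limit is the within-group SD between libraries of the median member deviation. It is wide, being close to the main medians of 0.30 and 0.26 against control. For single named genes, 264 alternative values kept the side of the threshold, 50 lost a call and 6 gained one. In low-iron against control pigs the count of 1 called member became 0 with median-of-ratios scaling, 0 with quantile normalization (1 member at an unadjusted limma p under 0.05 in each) and 5 with array quality weights. Leaving out each library gave 0 to 7, with 7 without control 5 (ME1, FDPS, ELOVL6, CYP51, SC5D and MSMO1 higher, GPAM lower) and 0 without low-iron 7 or control 4, and medians of 0.21 to 0.62. In high-iron against control pigs the count of 2 became 0 without the filter, where no member had an unadjusted limma p under 0.05, and 4 with array quality weights or with EIF1AY as a covariate. Leaving out each library gave 0 to 5, with 5 without high-iron 2, 4 without control 5 and 0 without control 4, control 6 or high-iron 7, and medians of 0.10 to 0.50. In high-iron against low-iron pigs the count of 0 became 1 with array quality weights or EIF1AY, and 0 to 3 as each library was left out. The median of -0.02 changed sign to 0.01 with TPM and 0.01 with quantile normalization, and ranged from -0.22 to 0.06 as each library was left out. The share of all tested genes called in each of these settings is not given, so the counts are not a result about the members. The cause of these shifts was not tested. With the replicate block the counts stayed at 1, 2 and 0 and the medians were 0.30, 0.28 and -0.05, and the calls of ACAT2 in low-iron against control (0.99) and FADS2 in high-iron against control (1.00) were lost. The table holds no counts for genes, so what the depth of a library limits for single genes was not tested.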

Other observations

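Lists of other liver cell types showed the following summed levels. The 6 Kupffer cell and macrophage markers summed to 414 to 463 FPKM in the low-iron, 418 to 475 in the control and 462 to 484 in the high-iron group, and the 5 T cell markers to 11.5 to 15.9, 9.49 to 20.4 and 18.2 to 35.5 FPKM. CD5L, at 249 to 335 FPKM, made up most of each macrophage sum. Its log2 difference in high-iron against control pigs was -0.22, while the other 5 macrophage markers were higher. For 4 of the 6 (CD163, CD68, CSF1R and VSIG4) these groups did not overlap, against 10.9% of all tested genes. The 5 B cell and plasma cell markers summed to 6.12 to 13.1, 11.08 to 24.0 and 15.3 to 27.9 FPKM, and the 4 matched bile duct markers to 12.9 to 34.2, 10.8 to 29.5 and 26.03 to 41.4 FPKM. The 6 stellate cell and fibroblast markers in the low-iron group summed to 87.0 to 189 FPKM, and the 6 endothelial markers to 94.6 to 140 FPKM. The erythroid list, which holds haemoglobin and haem synthesis genes, ranged from 478 to 2455 FPKM in the low-iron group, 212 to 1452 in controls and 351 to 841 in the high-iron group. High-iron 7 lay at 484 FPKM for macrophage markers, 138 for stellate cell markers and 18.2 for T cell markers, so it held the highest macrophage sum and the lowest stellate and T cell sums of its group. The largest part of that macrophage sum was CD5L, at 291 FPKM against 256 and 249 in high-iron 2 and 8. VSIG4 was also highest of the group in high-iron 7. CD163, MARCO, CD68 and CSF1R were instead lowest of the group there, at 96.6, 2.17, 30.7 and 32.4 FPKM.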
